A study of Mus musculus with 6 samples.

Results

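The members described here are 33 genes of mouse haematopoietic stem cells, treated here as noncoding RNA genes, out of 52183 in the deposited table. They were taken by symbol, and the symbols were chosen with earlier results of these data known. Of them 18 are snoRNA host genes (the Snhg genes with Gas5, Epb41l4aos and Dancr), 4 are microRNA host genes (Mir155hg, Mir142hg, Mir17hg and Dleu2), 8 are other long noncoding RNAs (Malat1, Neat1, Tug1, Pvt1, Lockd, Morrbid, Hotairm1 and Miat) and 3 are short structured RNAs (Rmrp, Rpph1 and Terc). RNA came from sorted stem cells of female mice aged 4 months, with 3 libraries labelled Thbs1 knockout and 3 labelled control. Thbs1 encodes thrombospondin 1, a secreted matrix glycoprotein. The labels give no strain, no promoter or Cre line behind the deletion and no number of animals. The p-values therefore set the group difference against the spread among these libraries, and that spread may be technical.

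Small nucleolar RNAs (snoRNAs) guide the methylation and pseudouridylation of ribosomal RNA, and most of them are cut out of the introns of host genes. Many hosts make no protein from their spliced transcript, which is often removed by nonsense-mediated decay, the pathway that destroys messages with an early stop codon. MicroRNA host genes work in the same way for a different cargo, since Drosha cuts the microRNA hairpin out of the long transcript. Malat1 and Neat1 stay in the nucleus, where Malat1 gathers at splicing speckles and Neat1 forms the scaffold of paraspeckles.

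The microRNA hosts differ in their cargo, and the mature sequences below show the seeds by which their products pick targets. They are RefSeq sequences (GRCm38.p6), written 5′ to 3′ with the seed, bases 2 to 8, in capitals. The pair from Mir17hg shares its seed, as does the pair from Dleu2, while the products of Mir155hg and Mir142hg have seeds of their own.
miR-155-5p of Mir155hg: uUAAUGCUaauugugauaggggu
miR-17-5p of Mir17hg: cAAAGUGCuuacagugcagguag
miR-20a-5p of Mir17hg: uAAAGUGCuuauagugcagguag
miR-15a-5p of Dleu2: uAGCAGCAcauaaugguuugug
miR-16-5p of Dleu2: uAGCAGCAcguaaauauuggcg
miR-142a-3p of Mir142hg: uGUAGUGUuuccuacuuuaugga

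The deposited level of each gene is in FPKM, the authors' fragment count scaled by exon length and library depth. The steps between FPKM values of short genes correspond to depths of 25740000 to 30890000 reads in the libraries labelled knockout and 22730000 to 25910000 in the controls. A gene with 1 kb of exon and 3 reads would thus stand at 0.0971 to 0.132 FPKM. Thbs1 itself did not pass the test and was not lower in the libraries labelled knockout. It stood there at 10.8, 8.5 and 7.68 FPKM, against 4.12, 13.8 and 2.33 FPKM in the controls (limma log2 change 0.65 with an SE of 0.43 and adjusted p = 0.503). Without control library 2 it was higher there (log2 change 1.26, adjusted p = 0.0344). The deposited exon sum does not show which part of the gene was deleted, so every direction here follows the labels. All 12 stem cell markers examined, among them Kit, Procr, Slamf1 and Mecom, were expressed, with a summed level of 743 to 828 FPKM in libraries labelled knockout and 759 to 847 FPKM in the controls. Of these Ly6a, which encodes the sorting antigen Sca-1, fell (log2 change -0.58, adjusted p = 0.0286). The call of Ly6a held in 2 of the 6 fits that left out a library (adjusted p up to 0.104) and in 5 of the 8 other settings (adjusted p up to 0.210). Before adjustment, 5 of the 12 markers had limma p below 0.05, against 16.4% of all tested genes. For 3 of the 12 every library labelled knockout lay above every control, where 12.6% of all tested genes did so. For 4 of the 12 every such library lay below every control, where 10.1% did. Among genes with a mean of at least 5 FPKM, 1 of 11 markers was called higher and 1 lower, where 112 and 151 of 8175 genes were.

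Among the 33 members, only Mir155hg passed the test, and no snoRNA host gene did by limma over all genes. Of the 33, 23 reached 1 FPKM in at least 3 libraries and were tested on log2(FPKM + 1) with limma, with p adjusted over all 12555 tested genes. The count of 1 higher and 0 lower members among 23 stands beside 1.56% of all tested genes called in either direction, 0.566% higher and 0.996% lower. Before adjustment, 5 of the 23 members had p below 0.05, against 16.4% of all tested genes. Every library labelled knockout lay above every control for 5 members and below every control for 3, where 12.6% and 10.1% of all tested genes did so. Such counts among 23 genes are descriptions, and nothing particular to these RNAs is read from them.

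**Figure D1:**
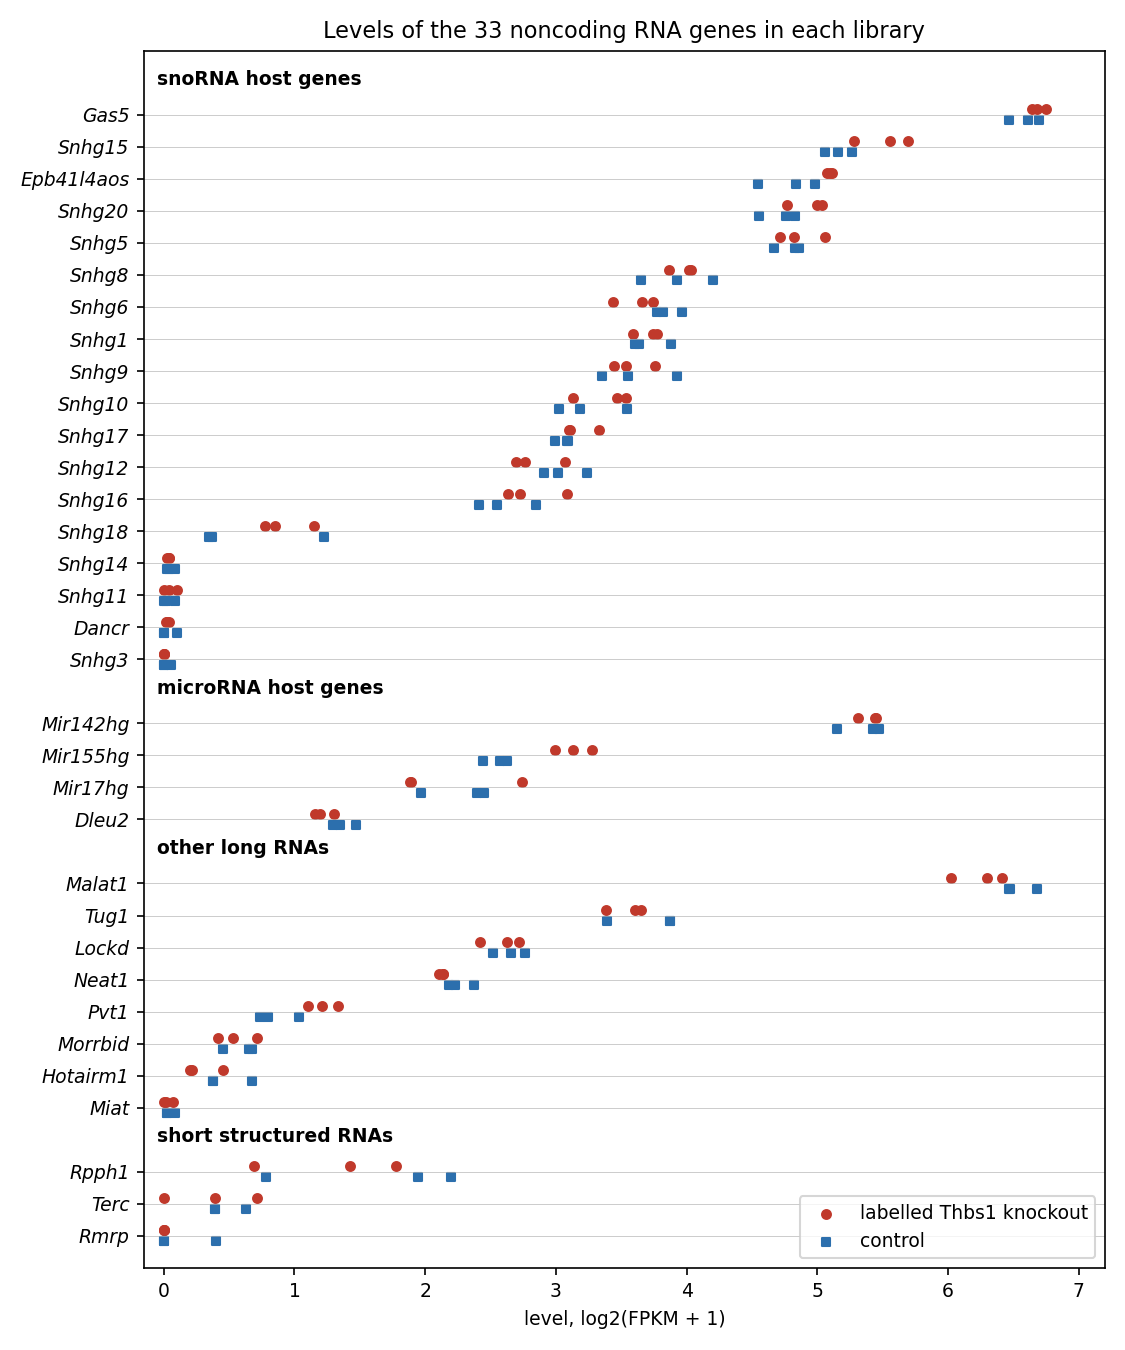
Levels of the 33 genes on the log2(FPKM + 1) axis, with 1 point per library, circles for libraries labelled Thbs1 knockout above squares for controls. Gas5 and Malat1 stand highest, and 10 genes lie near 0 or below the level needed for testing.

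Mir155hg carries the hairpin of miR-155, a microRNA induced in activated lymphoid and myeloid cells that restrains, among others, Socs1, Spi1, Cebpb and Inpp5d. The gene (ENSMUSG00000097418, chromosome 16, 84703167 to 84715245, plus strand, GRCm38, annotated as a lincRNA with 1433 bp of exon) stood at 6.96, 8.71 and 7.75 FPKM in libraries labelled knockout, against 4.44, 4.96 and 5.16 FPKM in the controls. All 3 libraries labelled knockout lay above all controls. The means were 7.81 ± 0.876 and 4.85 ± 0.372 FPKM (SD, n = 3 each), a ratio of 1.61. On the log2(FPKM + 1) scale it rose by 0.59 ± 0.11 SE (limma adjusted p = 0.0401). Behind these values lay 286 to 325 reads in the libraries labelled knockout and 164 to 168 in the controls.

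The call lies close to the threshold. It was lost when any library was left out (adjusted p 0.0519 to 0.147, with log2 changes from 0.51 to 0.66), and also without a filter on low values (adjusted p = 0.184), without the intensity trend (0.0664) and with the replicate number as a block (0.0854). The hairpin of Mir155 itself lies inside the host's annotated exons and was listed at 0 in every library, so the mature microRNA was not measured.

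Summed over each list, markers of lymphoid and myeloid cells, in which Mir155hg is known to be expressed, did not stand higher in the libraries labelled knockout. The 6 B cell markers summed to 24.2 to 27.8 FPKM there and to 28.9 to 31.1 FPKM in the controls, with Cd79a, Ebf1 and Pax5 below 1 FPKM in every library. The 8 neutrophil and monocyte markers summed to 328 to 363 FPKM in libraries labelled knockout, against 347 to 387 FPKM in the controls. The T cell genes Cd3d, Cd3e and Cd3g were below 1 FPKM throughout. The 5 endothelial and stromal markers summed to 1.3 to 2.1 FPKM in libraries labelled knockout, against 0.8 to 1.3 FPKM in the controls. Of them Cdh5, Col1a1, Cxcl12 and Lepr were below 1 FPKM in every library. Of 5 markers of the platelet lineage limma called 0. Before adjustment 1 was below 0.05, against 16.4% of all tested genes (Pf4, log2 change -0.75, limma adjusted p = 0.0594). The 5 summed to 255 to 360 FPKM in libraries labelled knockout and to 375 to 474 FPKM in the controls. Of the 34 markers of other cell types, 15 were tested. Among them Hbb-bt, a beta-globin gene, fell (log2 change -1.61, limma adjusted p = 0.00247). Its call was lost in 1 of 8 other settings with all libraries (adjusted p = 0.0874). Of the 15, 2 had log2 changes above 0, up to 0.41, and 13 below. Every library labelled knockout lay above every control for 1 of the 15 and below for 3. The part of these differences in the level of Mir155hg was not tested, and in sorted bulk cells fewer cells of a type and less RNA per cell cannot be told apart.

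Of 10 known targets of these microRNAs, limma called 0. Before adjustment 3 had p below 0.05, where 16.4% of all tested genes did. The median log2 change of the 10 was 0.06 beside 0.01 over all tested genes. After rescaling to a common sum (TPM) 1 of them was called higher, where 13.2% of all genes were. Socs1, an inhibitor of cytokine signalling and a target of miR-155, stood at 16.37, 16.03 and 16.01 FPKM in libraries labelled knockout, against 12.5, 13.3 and 13.1 FPKM in the controls (log2 change 0.30 ± 0.08 SE, limma adjusted p = 0.104). Spi1, which encodes the myeloid factor PU.1, stood at 29.8, 28.7 and 30.7 FPKM there and at 32.9, 34.0 and 33.8 FPKM in the controls (log2 change -0.17, adjusted p = 0.256). These 2 targets of miR-155 thus lay apart in opposite directions without a call. The others were Cebpb and Inpp5d (log2 changes 0.23 and 0.11, adjusted p = 0.429 and 0.535), whose groups overlapped.

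The remaining microRNA hosts showed no call, and their groups overlapped. Mir142hg, whose microRNA is specific to blood cells, was the highest of the class, at 42.6, 42.7 and 38.8 FPKM in libraries labelled knockout, against 34.5, 43.3 and 41.9 FPKM in the controls (log2 change 0.06, 95% interval -0.16 to 0.27). Mir17hg, the host of the growth-promoting miR-17 to miR-92a cluster, stood at 2.72, 5.67 and 2.70 FPKM there and at 2.91, 4.46 and 4.26 FPKM in the controls. Its level in knockout library 2 was the highest of all 6, which left the interval of its change wide (-0.63 to 0.43). Dleu2, the host of miR-15a and miR-16, stood at 1.23, 1.47 and 1.29 FPKM in libraries labelled knockout, against 1.45, 1.77 and 1.55 FPKM in the controls (log2 change -0.15, interval -0.50 to 0.20). Ccnd1 and Bcl2, targets of the miR-15 and miR-16 seed that encode cyclin D1 and a survival factor, had log2 changes of -0.34 and -0.31 without a call (limma adjusted p = 0.174 and 0.339).

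**Figure D2:**
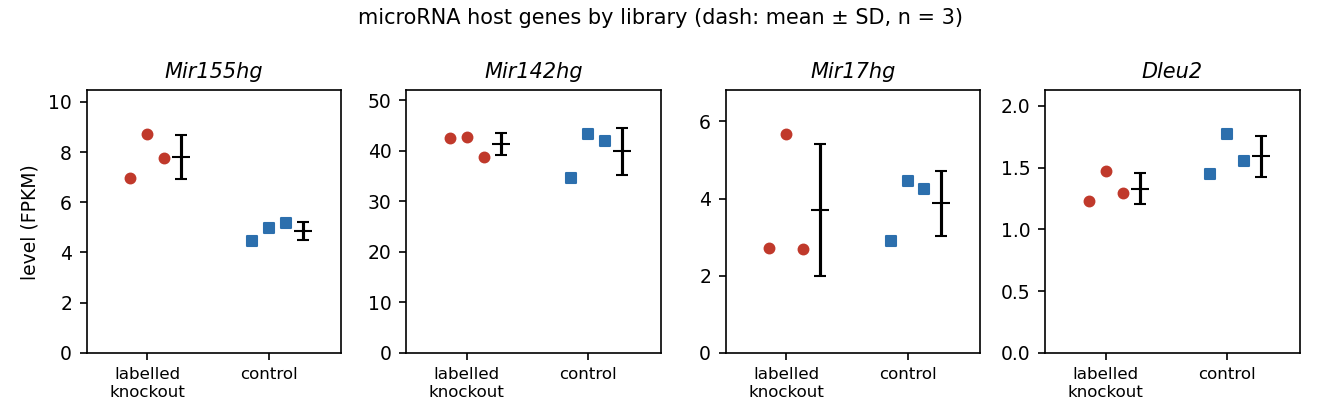
FPKM of the 4 microRNA host genes by library, from a zero baseline, with libraries labelled knockout on the left, controls on the right and dashes for the mean ± SD (n = 3 each). The groups are apart for Mir155hg, with 6.96 to 8.71 against 4.44 to 5.16 FPKM, and overlap for the others.

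None of the snoRNA host genes passed the test in either direction. Of the 18, 13 were tested, with 9 fitted changes above and 4 below 0. Over all 12555 tested genes 6704 lay above 0 and 5851 below. The host median log2 change was 0.10, beside 0.01 over all tested genes and -0.12 over the 10 other tested members. Before adjustment, 3 hosts had p below 0.05, where 16.4% of all tested genes did. Summed over all 18, the hosts came to 325, 330 and 301 FPKM in libraries labelled knockout, against 265, 289 and 316 FPKM in the controls, so the groups overlapped. The 5 tested other long RNAs had a median of -0.14, and the difference between the classes was not tested. Under TPM, the values rescaled to a common sum, the median of all genes shifted to 0.21. Relative to that shift the host median was 0.11, against 0.09 in FPKM, and that of the other members -0.17, against -0.13 in FPKM. Without that correction the other members' median under TPM was 0.037, of the same sign as the hosts'.

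Rescaling also changed the calls of host genes. Under TPM 4 of 14 tested hosts were called higher, namely Gas5, Snhg15, Epb41l4aos and Snhg20 (limma adjusted p = 0.0195, 0.0144, 0.0163 and 0.0286), where 13.2% of all genes were. Malat1, Neat1, Tug1, Lockd and Pvt1 were not called under either scale.

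Gas5, a growth-arrest transcript that carries a row of box C/D snoRNAs, was the most abundant host, with 31.3% to 33.6% of the summed host level in each library. It (ENSMUSG00000053332, chromosome 1, 161034422 to 161038539, plus strand) stood at 102, 107 and 99.1 FPKM in libraries labelled knockout, against 87.5, 97.1 and 103 FPKM in the controls. The groups overlapped (log2 change 0.10 ± 0.08 SE, 95% interval -0.07 to 0.27). These levels rest on 8433 to 11823 reads per library.

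Snhg15, a short-lived host of Snora9, showed the largest fitted rise among the tested hosts. It (ENSMUSG00000085156, chromosome 11, 6525591 to 6528760, minus strand) stood at 50.9, 46.0 and 37.9 FPKM in libraries labelled knockout and at 32.4, 34.8 and 37.4 FPKM in the controls. The groups lay apart, with knockout library 3 just above control library 3. The log2 change was 0.35 ± 0.11 SE (limma adjusted p = 0.152). Left out 1 library at a time, the change stayed between 0.26 and 0.46.

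Epb41l4aos, the mouse counterpart of a human host of an H/ACA snoRNA, was the second host whose groups were apart. It lies on chromosome 18 and stood at 32.7, 33.7 and 33.2 FPKM in libraries labelled knockout, against 22.4, 27.6 and 30.6 FPKM in the controls (log2 change 0.31 ± 0.11 SE, adjusted p = 0.190). The libraries labelled knockout were nearly level, while the controls spread by an SD of 4.16 FPKM. The snoRNA annotated inside its intron stood at 3.68, 0.87 and 1.76 FPKM there and at 2.04, 1.97 and 1.67 FPKM in the controls, with overlapping groups.

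For the next hosts by mean level, Snhg20, Snhg5 and Snhg8, the groups overlapped. Snhg20 stood at 30.9, 31.8 and 26.2 FPKM in libraries labelled knockout, against 22.5, 27.5 and 26.1 FPKM in the controls (log2 change 0.22, interval -0.01 to 0.45). Snhg5, the host of box C/D snoRNAs of the U50 family, stood at 27.3, 32.4 and 25.3 FPKM there and at 27.4, 24.4 and 28.0 FPKM in the controls. Snhg8 stood at 15.3, 15.4 and 13.6 FPKM in libraries labelled knockout, against 11.6, 14.2 and 17.4 FPKM in the controls (interval -0.25 to 0.34). Control library 3 held the highest Snhg8 level of all 6.

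Snhg6 and Snhg17 are added because their groups were apart, a choice made after their values were seen. Snhg6, which carries Snord87, stood at 9.83, 11.6 and 12.4 FPKM in libraries labelled knockout, against 13.2, 14.6 and 12.7 FPKM in the controls (log2 change -0.24 ± 0.11 SE, limma adjusted p = 0.297). Snord87 itself was at 3.35, 1.77 and 3.12 FPKM there and at 3.99, 3.98 and 2.02 FPKM in the controls, with overlapping groups. Snhg17 stood at 9.07, 7.60 and 7.62 FPKM in libraries labelled knockout and at 6.95, 7.47 and 7.53 FPKM in the controls (log2 change 0.13, adjusted p = 0.598). The last 5 tested hosts, Snhg1, Snhg9, Snhg10, Snhg12 and Snhg16, had log2 changes of -0.21 to 0.21 with overlapping groups.

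**Figure D3:**
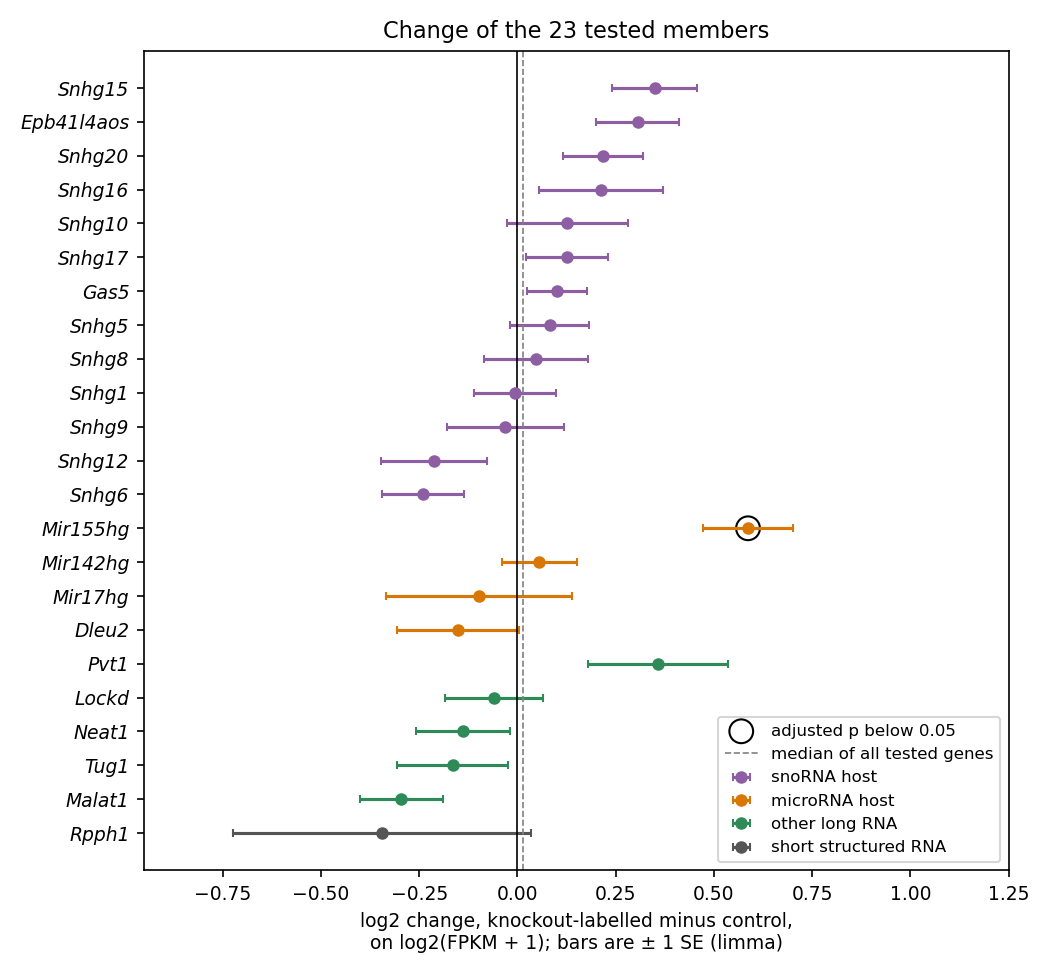
Log2 change of the 23 tested members on the log2(FPKM + 1) scale, libraries labelled knockout minus controls, with bars of 1 SE from limma, ordered within each class. A ring marks Mir155hg, the call at an adjusted p below 0.05, and the dashed line is the median of all tested genes at 0.01.

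The deposited values reach the snoRNAs themselves hardly at all. Inside the 18 host genes the annotation places 252 snoRNA and scaRNA features, 206 of them in introns of Snhg14, the imprinted host of the Snord115 and Snord116 arrays. Outside Snhg14, 36 features lie wholly inside annotated exons of their host, and all 36 were listed at 0 in every library. Of the 7 features that lie wholly inside introns outside Snhg14, 5 were above 0 in at least 1 library and 4 in all 6. These were Snord87 of Snhg6, Snora78 of Snhg9, Scarna13 of Snhg10 and the snoRNA of Epb41l4aos, at up to 3.99 FPKM. Of the intronic features of Snhg14, 14 were above 0 in a library and 0 in all 6. A listed 0 inside a host exon therefore does not show that the snoRNA was absent. The library kit primes from poly(A) tails, which mature snoRNAs lack.

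The annotation also sets the level of some hosts. The exons of Snhg1, Snhg8, Snhg12 and Dancr merge into 1 block over the whole locus, so their FPKM are divided by the length of introns as well. The same holds in part for other hosts, whose merged exons also cover the snoRNAs annotated inside them. Among these are Gas5 (3760 bp in 3 blocks), Snhg5 (1730 bp in 3), Snhg20 (2795 bp in 4) and Snhg17 (7052 bp in 4). Dancr, the host of Snora26, was nearly at 0, with 0 to 4 reads per library over 2347 bp. Snhg3 had 0 or 1 read. Of its exon length 83.3% is shared with exons of other genes, and 71.5% lies antisense to another gene. Among the genes that share its exons is Rcc1, at 30.8 ± 0.880 FPKM in libraries labelled knockout and 28.0 ± 1.06 FPKM in the controls. Snhg11, which the annotation lists as protein-coding, and Snhg14 stayed below 0.1 FPKM in all libraries. Snhg18 was at 1.22, 0.80 and 0.71 FPKM in libraries labelled knockout, against 0.29, 1.34 and 0.27 FPKM in the controls. Since the kit does not mark strand, reads of Snhg16 (17.9% of exon length antisense to another gene), Snhg6 (11.1%) and Snhg9 (7.7%) may include those of the opposite strand. Snhg9 lies beside the ribosomal protein gene Rps2, at 444 ± 11.0 and 412 ± 55.6 FPKM in libraries labelled knockout and the controls.

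Many snoRNA hosts belong to the 5′ TOP genes, whose transcripts begin with a C followed by pyrimidines and are tied to growth signalling. RefSeq promoters were at hand for 16 of the 18 hosts. A C within 5 bases of an annotated start, followed on the sense strand by at least 4 bases that are each C or T, was found in 7 of these 16 (43.8%), in 1 of the 8 other members with a promoter, and in 21.2% of all 27025 genes. The motif CACGTG, the E-box bound by MYC and related factors, reads the same on both strands and was found within 250 bases before to 50 after a start in 2 of the 16 hosts (12.5%), Snhg15 and Snhg9, in 1 of the 8 other members (12.5%), Dleu2, and in 8.09% of all genes. The starts of 3 hosts with a tract are shown with the tract in capitals, and that of Snhg15, the host with the largest fitted rise, with CACGTG in capitals. The Gas5 start shown is a second one that RefSeq places inside the gene. Each runs from 20 bases before the start to 30 after it, on the strand of the gene (GRCm38.p6).
Gas5, plus strand of chr1:161035146-161035195: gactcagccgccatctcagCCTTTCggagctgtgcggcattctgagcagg
Snhg8, minus strand of chr3:123508307-123508356: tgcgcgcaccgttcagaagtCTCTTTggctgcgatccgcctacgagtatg
Snhg12, plus strand of chr4:132308658-132308707: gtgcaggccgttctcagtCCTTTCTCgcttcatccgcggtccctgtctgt
Snhg15, minus strand of chr11:6528731-6528780: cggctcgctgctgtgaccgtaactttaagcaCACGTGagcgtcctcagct
The 3 hosts with a tract shown here had log2 changes of 0.10, 0.05 and -0.21. Of the other hosts with a tract, Snhg10 had a log2 change of 0.13 and Snhg9 of -0.03, while Snhg3 and Snhg18 were not tested. Of the genes with CACGTG, Snhg15 had a log2 change of 0.35, Snhg9 of -0.03 and Dleu2 of -0.15. None of these was called by limma.

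Malat1, an abundant nuclear RNA of splicing speckles, stood lower in all libraries labelled knockout without passing the test. The gene (ENSMUSG00000092341, chromosome 19, 5795690 to 5802672, minus strand, a single exon block of 6983 bp) was at 64.2, 84.1 and 77.6 FPKM in libraries labelled knockout, against 88.1, 87.3 and 102 FPKM in the controls. Knockout library 1 was the lowest of all. The log2 change was -0.30 ± 0.11 SE, with a 95% interval from -0.53 to -0.06 (limma adjusted p = 0.201). Under TPM the change was -0.10.

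Neat1, the neighbour of Malat1 on chromosome 19, differed by less. It was at 3.39, 3.39 and 3.30 FPKM in libraries labelled knockout and at 4.19, 3.55 and 3.69 FPKM in the controls. The groups were just apart (log2 change -0.14 ± 0.12 SE, adjusted p = 0.613), and under TPM the change was 0.02. The FPKM covers 20771 bp as a single block, so the short and long Neat1 isoforms cannot be told apart.

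**Figure D4:**
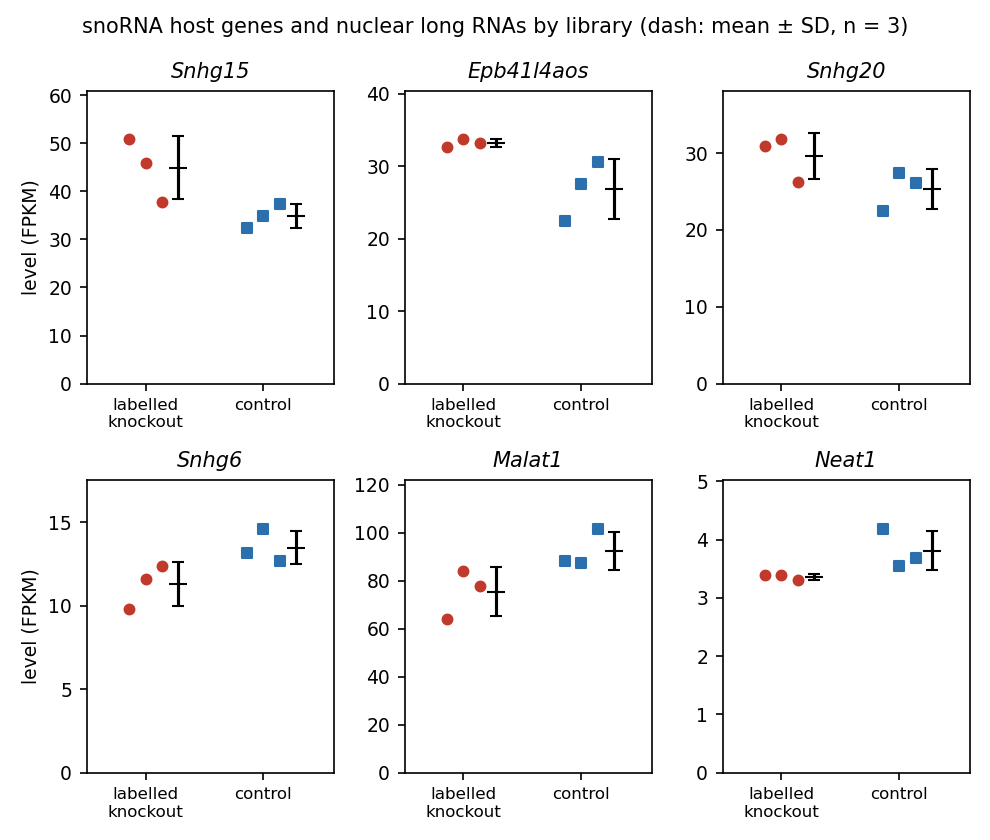
FPKM of 4 snoRNA host genes and of Malat1 and Neat1 by library, from a zero baseline, with libraries labelled knockout on the left, controls on the right and dashes for the mean ± SD (n = 3 each). Snhg15 and Epb41l4aos lie higher and Snhg6, Malat1 and Neat1 lower in every library labelled knockout, and none of them passed the test.

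Of the remaining long RNAs, Pvt1 had the largest ratio. Pvt1, which lies downstream of Myc and carries microRNAs, was at 1.15, 1.31 and 1.52 FPKM in libraries labelled knockout, against 0.67, 1.05 and 0.74 FPKM in the controls. The groups were apart, at a ratio of means of 1.62, and the log2(FPKM + 1) scale compresses such low levels (log2 change 0.36 ± 0.18 SE, interval -0.04 to 0.76, limma adjusted p = 0.358). Its nearest coding gene, Myc, starts 52595 bp away and rose (log2 change 0.70, adjusted p = 0.00446).

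Tug1, an RNA that starts 482 bp from the divergent gene Morc2a, was at 9.42, 11.2 and 11.6 FPKM in libraries labelled knockout, against 13.6, 13.6 and 9.49 FPKM in the controls, and Morc2a had a log2 change of -0.12 (adjusted p = 0.695). Lockd, which lies downstream of the cell cycle inhibitor gene Cdkn1b, was at 4.35, 5.18 and 5.59 FPKM there and at 5.32, 4.74 and 5.79 FPKM in the controls. The groups of Tug1 and of Lockd overlapped. Cdkn1b itself had a log2 change of -0.33 without a call (adjusted p = 0.316).

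Morrbid, a myeloid RNA that restrains Bcl2l11 and lies 10.2 Mb from Thbs1 on chromosome 2, was at 0.33, 0.64 and 0.44 FPKM in libraries labelled knockout, against 0.60, 0.37 and 0.57 FPKM in the controls, too low to be tested. Bcl2l11, which encodes the cell death protein BIM, had a log2 change of 0.07 (adjusted p = 0.850). Hotairm1, a myeloid long noncoding RNA, was at 0.15 to 0.37 FPKM in libraries labelled knockout and at 0.30 to 0.60 FPKM in the controls, with 4 to 16 reads. Miat stayed at or below 0.06 FPKM.

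The short structured RNAs are made without a poly(A) tail and were hardly read. Rpph1, the RNA of RNase P, was at 2.43, 1.69 and 0.61 FPKM in libraries labelled knockout, against 0.72, 2.85 and 3.59 FPKM in the controls, from 5 to 26 reads (log2 change -0.34 ± 0.38 SE, interval -1.20 to 0.51). Terc, the RNA template of telomerase, was at 0.31, 0.64 and 0.00 FPKM there and at 0.55, 0.31 and 0.31 FPKM in the controls. Rmrp, the RNA of RNase MRP, was listed at 0 in 5 libraries and at 0.32 FPKM in control library 2, and all of its exon is shared with other annotated genes. For all 3 short RNAs the groups overlapped. Another RNA without a poly(A) tail, Rn7sk of the elongation-restraining 7SK particle, fell to 7.82, 6.73 and 3.64 FPKM in libraries labelled knockout, against 20.7, 17.8 and 25.8 FPKM in the controls (log2 change -1.70, limma adjusted p = 0.00699, a call lost without a filter on low values). Whether this difference bears on the short RNAs was not tested.

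The proteins that act with these RNAs gave few calls. Of 15 core and assembly proteins of snoRNA particles, limma called 0. Before adjustment 4 had p below 0.05, where 16.4% of all tested genes did. Fitted changes lay above 0 for 14, and for 6704 of all 12555 tested genes (median 0.13, beside 0.01 over all tested genes). Nop56, a box C/D core protein whose gene is itself a snoRNA host, averaged 122 ± 8.22 FPKM in libraries labelled knockout and 103 ± 3.80 FPKM in the controls (log2 change 0.25, adjusted p = 0.130). Naf1, an assembly factor of H/ACA particles, stood the other way, at 3.64, 4.26 and 3.64 FPKM there and 6.30, 5.16 and 5.59 FPKM in the controls (log2 change -0.46, adjusted p = 0.103). Under TPM 8 of the 15 were called higher, where 13.2% of all genes were.

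Of 43 protein-coding genes with intronic snoRNAs, Hspa8 alone was called. Hspa8, the constitutive HSP70 chaperone, rose to 667, 602 and 592 FPKM in libraries labelled knockout, against 359, 321 and 352 FPKM in the controls (log2 change 0.85 ± 0.08 SE, limma adjusted p = 0.000921). The other 42, mostly ribosomal protein genes, were not called, and the median of the list was 0.03. Hspa8 kept its call in all 6 fits that left out a library, and missed it in 1 of the 8 other settings (adjusted p up to 0.0555). Under TPM 17 of the 43 were called higher, where 13.2% of all genes were. Of 15 factors of nonsense-mediated decay and the exon junction complex, limma called 0. Against 16.4% of all tested genes, 1 of the 15 was below 0.05 before adjustment. That was Upf1, the helicase at the centre of the pathway, at 46.4, 44.5 and 43.7 FPKM in libraries labelled knockout, against 40.2, 39.5 and 37.9 FPKM in the controls (log2 change 0.19, adjusted p = 0.190). Under TPM 3 of the 15 were called higher, where 13.2% of all genes were.

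Nono and Sfpq, which bind Neat1 and hold paraspeckles together, had log2 changes of 0.00 and -0.16 without a call (limma adjusted p = 0.992 and 0.451), and the groups of each overlapped.

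Of 10 tested protein subunits of RNase P and RNase MRP, Pop5 rose and 9 were not called. Pop5 stood at 23.8, 21.3 and 22.4 FPKM in libraries labelled knockout, against 15.0, 17.4 and 16.5 FPKM in the controls (log2 change 0.44 ± 0.09 SE, limma adjusted p = 0.0392). The call of Pop5 was lost whichever library was left out (adjusted p 0.0737 to 0.120), and under TPM 6 of the 10 were called higher, where 13.2% of all genes were. The telomerase partners and shelterin genes gave 0 calls by limma among 10 tested. Before adjustment 1 was below 0.05, against 16.4% of all tested genes. Under TPM 2 were called higher, against 13.2% of all genes. Wrap53, which guides Terc to Cajal bodies, averaged 17.7 ± 0.765 FPKM in libraries labelled knockout and 15.0 ± 0.433 FPKM in the controls (adjusted p = 0.196). The microRNA processing genes gave 0 calls by limma among 12 tested. Before adjustment 3 were below 0.05, against 16.4% of all tested genes. Under TPM 2 of 13 were called higher, against 13.2% of all genes. Prkra, a partner of Dicer, averaged 29.3 ± 0.447 FPKM there and 24.5 ± 1.67 FPKM in the controls (adjusted p = 0.139).

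**Figure D5:**
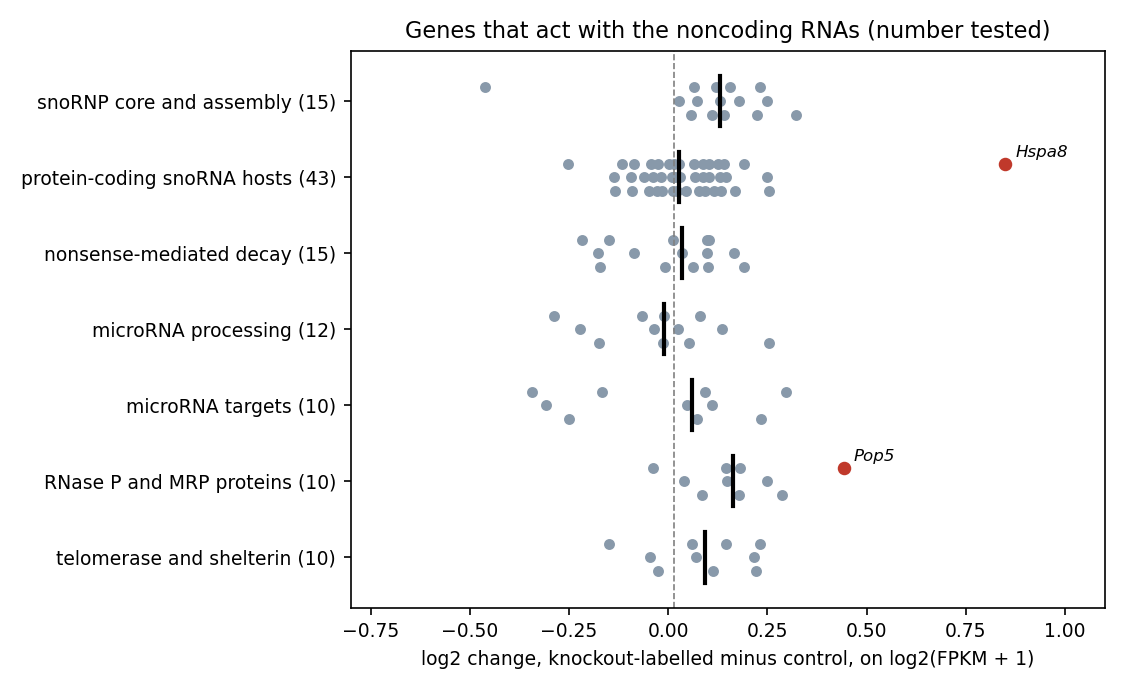
Log2 changes on the log2(FPKM + 1) scale, libraries labelled knockout minus controls, of the tested genes of 7 lists of genes that act with the noncoding RNAs or are their targets, with 1 point per gene and a bar at each list's median. Red points are the called genes Hspa8 and Pop5, and the dashed line is the median of all tested genes at 0.01.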

How the data were processed

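The authors deposited FPKM values for 52183 genes, with 2 decimals. Per the labels' protocols, libraries were made with the SMART-Seq v4 kit from 2 ng of RNA. STAR, edgeR and FastQC 0.11.5 are listed in the submitters' processing notes, as are the builds GRCm38 and mm10, without roles. How overlapping genes were counted is not given in the sources used here. All identifiers matched GENCODE release M21 (GRCm38), which gave positions and merged exon lengths.

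Depth was the read number that made the FPKM of genes with at most 400 bp of exon whole multiples of 1 read, with 99.4% to 99.7% of values whole within 0.1 read. PCR copies were not marked, so the error of the read numbers may exceed counting error. No library was a copy of another in its group (chi-square over degrees of freedom 7.56 to 13.9).

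Genes that reached 1 FPKM in 3 or more libraries were tested on log2(FPKM + 1), a scale that understates changes of low genes, with limma 3.58.1 in R 4.3.3 (eBayes with trend, group as the only term, two-sided, Benjamini-Hochberg threshold 0.05). The fit was tested on simulated data. The members and lists were chosen with earlier results of these data known. Values by library are given for called members and for the 6 highest of each class, and list genes are the called ones and those with the smallest p; Cebpb, Inpp5d, Bcl2, Bcl2l11, Nono, Sfpq and the neighbouring genes were added after their values were seen. Papd5 was not found by symbol. MicroRNA and promoter sequences are from RefSeq (GRCm38.p6). Some results are not reported here.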

Additional observations from a re-analysis of the deposited data

How the results depend on the processing

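Fits were repeated with a pseudocount of 0.1, without a filter, with a mean of at least 5 FPKM, under TPM, median-of-ratios and quantile scaling, without the trend, with the replicate number as a block, and without each library. The snoRNA hosts called higher numbered 0 in all of these but TPM, which gave 4, and their median change was 0.32 under TPM. With a library left out that median lay between 0.04 and 0.15. Other members called higher numbered 1, but 0 without a filter, without the trend, with the block and in all 6 fits without a library. Mir155hg stayed higher in all of them. No member was called lower in any fit. Over all genes, calls numbered 196 (71 higher, 125 lower), 24 without a filter (8 and 16), 2144 under TPM (2016 higher), 89 without the trend (24 and 65), 81 with the replicate block (27 and 54) and 59 to 106 without a library (16 to 38 higher, 43 to 77 lower). A mean of at least 5 FPKM gave 112 higher. Thbs1 changed by 0.19 to 1.26 without a library. Same-numbered libraries did not deviate together (correlations of -0.11, 0.037 and -0.079), and those of unlike number gave -0.1 to 0.19. With 3 libraries per group these correlations cannot decide whether the numbers pair the libraries. The sign of small uncalled changes turned under TPM for Mir17hg (0.066), Tug1 (0.024), Lockd (0.12), Neat1 (0.023), Snhg1 (0.19) and Snhg9 (0.17). Without a library it turned in at least 1 fit for Mir142hg (-0.043 to 0.12), Mir17hg (-0.38 to 0.046), Lockd (-0.12 to 0.026), Snhg5 (-0.016 to 0.16), Snhg8 (-0.092 to 0.18), Snhg1 (-0.058 to 0.082) and Snhg9 (-0.16 to 0.13). The causes were not tested. The 10 untested members had 0 to 68 reads per library.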
